A study of Mus musculus with 14 samples.

Results

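The set described here is the mouse genes named *Mmp*, *Timp*, *Adam*, *Adamts* or *Adamtsl* followed by a number, taken by symbol from the table of TPM (transcript abundance scaled to a fixed total per library) of a SOX9 induction time course. The rule found 85 genes of 54332 rows: 34 *Adam*, 19 *Adamts*, 5 *Adamtsl*, 23 *Mmp* and 4 *Timp* genes. The rule used names only, and no measured value. Matrix metalloproteinases (MMPs) are zinc-dependent enzymes, made as inactive proforms, that cut collagens, laminins, proteoglycans and other proteins of the extracellular matrix, and they are best known in skin from wound edges, the growing hair follicle and invasive tumours. ADAMs are mostly membrane-bound relatives that release growth factors, cytokines and receptors from the cell surface, ADAMTS enzymes are secreted and cut proteoglycans, procollagens and matrix glycoproteins, and ADAMTS-like proteins share their ancillary domains but lack the catalytic one. Tissue inhibitors of metalloproteinases (TIMPs) bind the active site of these enzymes, and TIMP2 also takes part in the activation of proMMP2 by MMP14 at the cell surface.

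The cells were epidermal stem cells (EpdSCs) of back skin from CD1 mice that carry 2 transgenes, K14rtTA and TRE-myc-Sox9, in which a keratin 14 promoter drives a doxycycline-dependent activator in basal epidermis and the activator switches on MYC-tagged SOX9. All 10 libraries share this genotype, the D0 controls included, and were labelled male and sorted as CD31, CD45, CD117 and CD140a negative, CD49f high, CD34 negative and Ly6A high. D0 mice were postnatal day (P) 21 and had not yet had doxycycline, and mice taken at W1 (P28), W2 (P35) and W6 (P63) had been injected with doxycycline at P21 and fed it since. The W12 cells came from newborn skin of the same genotype grafted onto immunocompromised female Nude mice, where doxycycline was started once the graft had healed. Each of the 5 timepoints had 2 biological replicates. Grafting and 12 weeks of SOX9 therefore cannot be told apart, the mice were older at each step up to W6, and mice with K14rtTA only were not analysed here.

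Because of that scaling, sequencing depth cannot be read from TPM, and counting intervals are not given. In sorted bulk RNA, more cells of a type and more RNA per cell cannot be told apart. The transgene transcript was at 89.6 and 45.6 TPM at D0 and between 606 and 3414 TPM in the 8 later libraries. All 6 genes listed for basal epidermis and for the sort, *Krt5* and *Krt14* among them, were above 1 TPM in every library. Some libraries went against their labels or stood apart. D0 replicate 2 had 4.61 TPM of *Xist*, the X-inactivation transcript, and 0.0278 TPM of *Ddx3y*, a Y-linked gene, and both W12 libraries held *Xist* (5.51 and 3.50 TPM) and *Ddx3y* (11.0 and 12.9 TPM). The graft hosts were female, and whether the W12 libraries hold host cells was not tested. Although the sort removes CD31-positive cells, all 4 listed endothelial genes (*Pecam1*, which encodes CD31, *Cdh5*, *Kdr* and *Vwf*) reached 1 TPM in both W12 libraries, with summed levels of 42.6 and 93.7 TPM against 0.141 to 1.78 TPM in the other 8 libraries. The 5 neutrophil genes summed to 5.98 and 3.47 TPM at W12 and to less in every other library. Most of this was *Cxcr2*, at 3.20 and 2.32 TPM, beside *Retnlg* at 1.80 and 0.772 TPM and *Mpo* at 0.861 and 0.137 TPM. *Ly6g* and *Csf3r* were at most 0.222 TPM in any library. The 7 macrophage and general immune genes summed to 104 and 128 TPM at W12 and at most 27.9 TPM in the others. Nearly all of the macrophage and general immune sum at W12 was *Cd74*, an MHC class II chaperone, while *Ptprc*, the gene of CD45, was at most 0.327 TPM in any library. W6 replicate 2 held *Dcn* at 51.2 TPM, against 1.46 TPM in replicate 1, while *Lum*, *Pdgfra* and *Pdgfrb* were at most 0.188 TPM in any library. The 8 fibroblast genes summed to 17.2 and 11.3 TPM at D0, 44.7 and 42.2 TPM after 1 week, 79.6 and 90.2 TPM after 2, 122 and 119 TPM at W6 and 38.8 and 67.2 TPM at W12, mostly *Fbln1*, which had 15.4 and 7.20 TPM at D0, then 120 and 67.1 TPM at W6. The immediate-early gene *Fos*, a subunit of AP-1, was at 7385 and 8547 TPM in the D0 libraries and between 1054 and 3005 TPM in the 8 later ones, with a log2 change of −2.41 at W12 (limma adjusted *P* = 0.00138). D0 is the reference of every change given against D0. The part of these differences in the results was not tested.

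A gene was called detected when it reached 1 TPM in both replicates of at least 1 timepoint. By this definition 29 of the 85 genes were detected: 12 of 23 *Mmp*, 3 of 4 *Timp*, 5 of 34 *Adam*, 6 of 19 *Adamts* and 3 of 5 *Adamtsl* genes. None of the 22 *Adam* genes outside the somatic sheddases and the somatic non-catalytic ADAMs was detected, and many of these are known from testis. Of all members, 52 stayed under 1 TPM in every library, 25 of them under 0.1 TPM, and 6 were listed at 0 throughout. Both D0 and W1 had 18 detected genes, W2 had 17, W6 had 16 and W12 had 25. A core of 12 genes was detected at all 5 timepoints, namely *Adam8*, *Adam9*, *Adam10*, *Adam15*, *Adam17*, *Adamts1*, *Adamtsl5*, *Mmp2*, *Mmp14*, *Mmp28*, *Timp2* and *Timp3*. Detected at W12 but not at D0 were 10 genes (*Timp1*, *Mmp1a*, *Mmp1b*, *Mmp9*, *Mmp10*, *Mmp12*, *Mmp13*, *Adamts4*, *Adamts9* and *Adamts10*), and 3 were detected at D0 but not at W12 (*Adamtsl4*, *Mmp15* and *Mmp17*). The share of all rows detected by the same rule was not taken at any timepoint. These counts therefore describe the members only. The members' summed level lay between 518 and 573 TPM in the 6 libraries of D0, W1 and W2, was 412 and 421 TPM at W6, and was 684 and 885 TPM at W12.

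**Figure D1:**
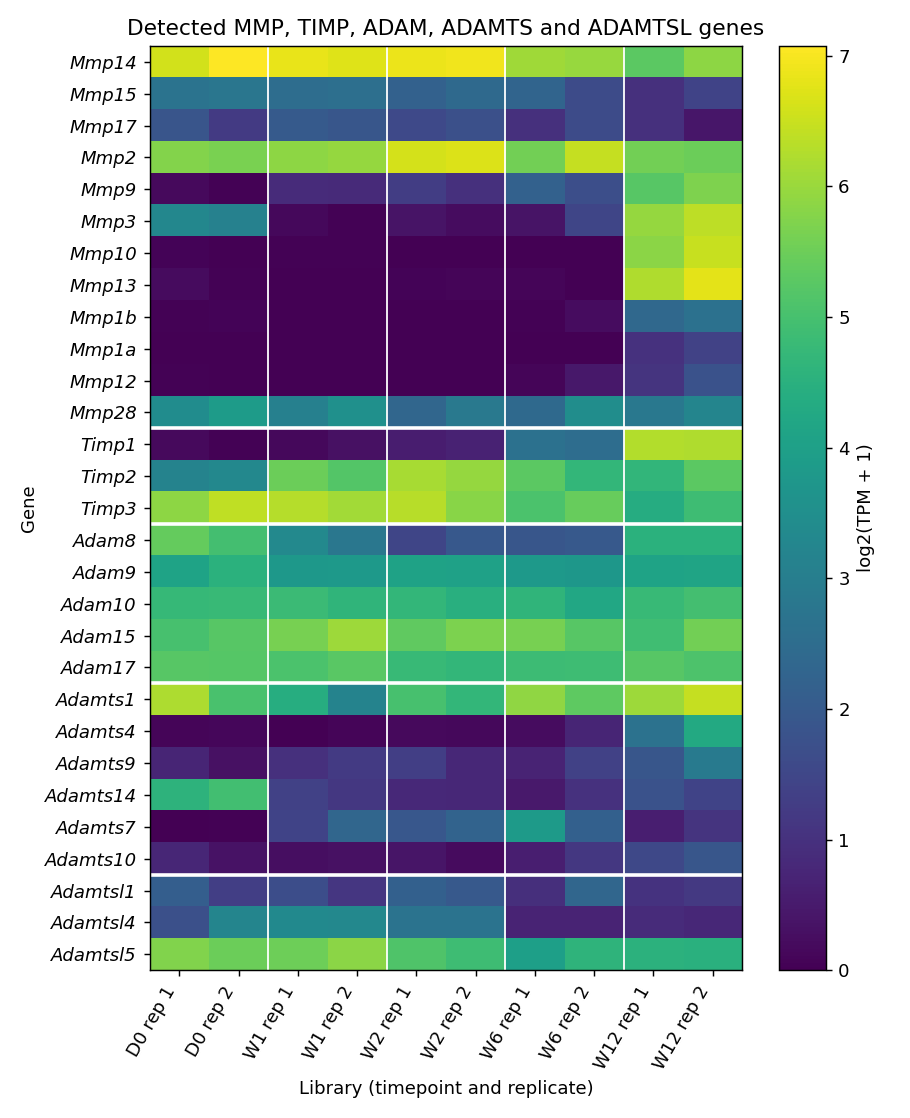
Level of the 29 detected genes on the log2(TPM + 1) scale (colour), with 1 column per library and 1 row per gene, white vertical lines between timepoints and white horizontal lines between families. The block of *Mmp9*, *Mmp3*, *Mmp10*, *Mmp13*, *Mmp1b*, *Mmp1a* and *Mmp12* is brightest in the 2 W12 columns, while *Mmp14* and *Timp3* are dimmest there.

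Differences were tested on log2(TPM + 1) with limma and Benjamini-Hochberg adjustment over all 13110 genes whose mean reached 1 TPM, in a single fit of the 5 timepoints, and a gene was said to rise or fall at an adjusted *P* under 0.05. Fold changes of weakly expressed genes come out too small on this scale. Of the 85 members, 25 passed the filter on mean level. A gene that is high at a single timepoint can pass through that timepoint alone, so the counts below describe the tested members and not the family. At W1 against D0, 1 tested member rose (4%, against 5.79% of all genes tested) and 4 fell (16%, against 4.1%). At W2, 4 rose (16%, against 9.06%) and 4 fell (16%, against 6.64%). At W6, 4 rose (16%, against 18.3%) and 9 fell (36%, against 14.1%). At W12, 8 rose (32%, against 17.9%) and 6 fell (24%, against 25.1%). The share of members that rose was near or under the background at W1 and W6, and the share that fell was near it at W12. Of the 8 that rose at W12, 4 passed the filter only through their W12 values, so that share is not read against the background.

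The members' median log2 change against D0 was −0.02 after 1 week (all genes tested, 0.09), −0.03 after 2 (all genes, 0.06), −0.23 after 6 (all genes, 0.08) and −0.06 at W12 (all genes, −0.08). Without D0 replicate 2, the library whose *Xist* went against its label, the number of members past the threshold was 6 in place of 5 at W1, 5 in place of 8 at W2, 9 in place of 13 at W6, and 15 in place of 14 at W12. Of the 8 calls at W2, leaving out D0 replicate 1, W2 replicate 1 or W2 replicate 2 left 4, and leaving out either W1 or either W12 library left 5, where a lone library is assumed to vary like the others.

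Between neighbouring timepoints, no member passed the threshold from W1 to W2 in limma, where 0.0458% of all genes rose and 0.0686% fell. At an unadjusted limma *P* under 0.05 there were 6 members. The share of all genes at that cut was not taken, so this count is not read as a result. At the adjusted threshold, the alternative settings that left out no single replicate gave 0. From W2 to W6, 1 member rose (4%, against 7.99% of all genes) and 3 fell (12%, against 8.31%). The count of 4 became 1 without W2 replicate 1 and also without W2 replicate 2. From W6 to W12, 9 members rose (36%, against 6.66%) and 1 fell (4%, against 13.5%). The median over all genes from W6 to W12 was −0.16, and it was −0.02 after median-ratio scaling, while the members' median was 0.30. Of the 9 members that rose, 4 (*Adamts4*, *Adamts9*, *Mmp10* and *Mmp13*) had a mean under 1 TPM over the other 8 libraries and passed the filter only through W12, so their rise is part of how they came to be tested. W6 to W12 is also the step between ungrafted and grafted skin.

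**Figure D2:**
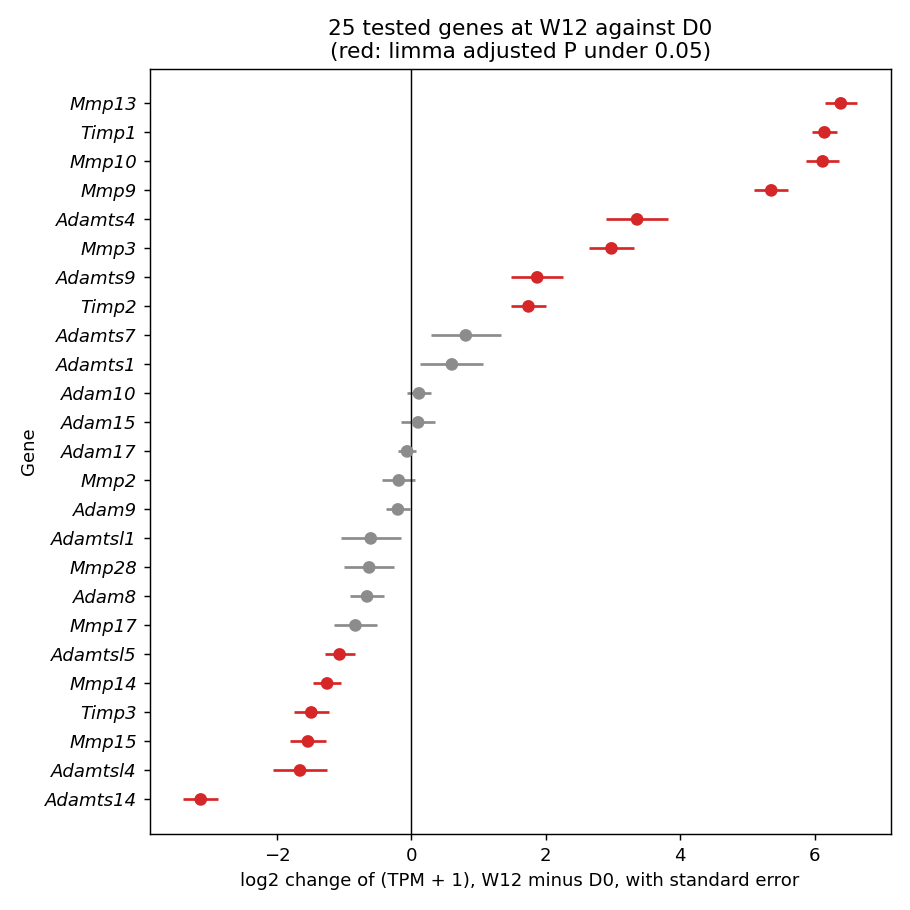
Fitted log2 change of (TPM + 1) at W12 minus D0 for the 25 tested genes, with points for the estimate, bars for its standard error and red for an adjusted *P* under 0.05. *Mmp13*, *Timp1*, *Mmp10* and *Mmp9* lie above 5 and *Adamts14* lies lowest at −3.13.

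Of the MMPs, 10 lie side by side on chromosome 9 (chr9:7272514-7699585, GRCm38, 427 kb). They include the collagenases, which open triple-helical collagen, and the stromelysins *Mmp3* and *Mmp10*, which cut a broad range of matrix proteins and activate other proMMPs. From 7272514 upwards the order is *Mmp13*, *Mmp12*, *Mmp1b*, *Mmp3*, *Mmp1a*, *Mmp10*, *Mmp8*, *Mmp27*, *Mmp20* and *Mmp7*. In both W12 libraries, 6 neighbouring genes from *Mmp13* to *Mmp10* were above 1 TPM, and the other 4 genes were at most 0.426 TPM in any library. RefSeq promoter windows on GRCm38.p6, from 250 bases before to 50 bases after each start site, were searched for the binding letters of AP-1, the JUN and FOS dimer long known to act on several MMP promoters, spelled TGACTCA or TGAGTCA, which are each other's reverse complement, so that both strands were covered. All 6 genes expressed at W12 held the motif, as did *Mmp7* of the other 4. It stood 35 bases before the start site in *Mmp13*, 44 in *Mmp12* (at the second of its 2 listed starts only), 93 in *Mmp1b*, 46 in *Mmp3*, 73 in *Mmp1a* and 63 in *Mmp10* and *Mmp7*. The 100 bases before the start site are shown for these genes, with *Mmp7* and *Mmp8* to set beside them as genes of the cluster that were not detected. They are written 5′ to 3′ on the gene's strand, with the AP-1 letters in capitals.
Mmp13 (chr9:7272414-7272513, forward strand): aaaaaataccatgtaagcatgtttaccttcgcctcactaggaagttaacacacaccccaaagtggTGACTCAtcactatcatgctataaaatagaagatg
Mmp12 (chr9:7347274-7347373, forward strand): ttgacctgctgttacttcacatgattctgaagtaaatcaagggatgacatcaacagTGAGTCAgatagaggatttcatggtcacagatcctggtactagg
Mmp1b (chr9:7388027-7388126, reverse strand): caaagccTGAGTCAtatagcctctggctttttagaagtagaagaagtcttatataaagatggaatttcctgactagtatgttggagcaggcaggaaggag
Mmp3 (chr9:7445722-7445821, forward strand): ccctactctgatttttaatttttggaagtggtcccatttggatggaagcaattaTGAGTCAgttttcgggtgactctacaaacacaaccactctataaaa
Mmp1a (chr9:7464041-7464140, forward strand): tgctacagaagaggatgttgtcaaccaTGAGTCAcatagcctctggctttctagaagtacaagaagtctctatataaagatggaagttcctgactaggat
Mmp10 (chr9:7502242-7502341, forward strand): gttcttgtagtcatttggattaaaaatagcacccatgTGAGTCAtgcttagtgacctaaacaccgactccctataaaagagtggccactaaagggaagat
Mmp7 (chr9:7691990-7692089, forward strand): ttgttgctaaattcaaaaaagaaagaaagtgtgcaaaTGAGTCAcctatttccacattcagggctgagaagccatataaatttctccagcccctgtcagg
Mmp8 (chr9:7558329-7558428, forward strand): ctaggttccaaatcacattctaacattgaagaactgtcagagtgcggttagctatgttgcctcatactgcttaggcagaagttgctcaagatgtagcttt
Over all 32851 windows in the table, 5.20% held one of these spellings, and of the members outside the cluster 3 of 44 genes with a window did. The TATA letters TATAAA, searched on the gene's strand, were in the windows of 8 of the 10 cluster genes and in 8.32% of all windows. The letters ACAAAG or CTTTGT, a core that SOX proteins bind, were in the windows of 6 cluster genes (*Mmp1b*, *Mmp10*, *Mmp12*, *Mmp7*, *Mmp8* and *Mmp20*, of which the last 3 were not detected) and in 18.7% of all windows. The related spelling ACAATG or CATTGT was in the windows of 3 (*Mmp1a*, *Mmp12* and *Mmp7*) and in 12.6% of all windows. The motifs were chosen with the expression values known, and a match is a description of the letters and no measure of binding. Of the 85 members, 54 had a window in the table.

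The summed level of the 10 cluster genes was 8.93 and 7.76 TPM at D0, nearly all of it *Mmp3*. It was 0.210 and 0.123 TPM at W1, 0.457 and 0.471 TPM a week later, 0.963 and 2.37 TPM at W6, then 199 and 287 TPM at W12. The cluster was thus low but present before doxycycline, lowest at W1, and highest at W12 without overlap with any earlier library.

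*Mmp13*, collagenase-3, was at 0.154 and 0.0227 TPM at D0, 0 in both W1 libraries, 0.0412 and 0.0604 TPM at W2, 0.0658 and 0 TPM at W6, and 74.3 and 109 TPM at W12. Its log2 change was 6.39 at W12 against D0 (SE 0.24, limma adjusted *P* = 1.75e-06) and 6.46 against W6 (adjusted *P* = 4.76e-06). *Mmp10*, stromelysin-2, a product of keratinocytes at wound edges, behaved alike. It was at 0.0438 and 0.0122 TPM at D0, 0.0261 and 0.0334 TPM at W1, 0.0116 and 0 TPM at W2, 0.0190 and 0 TPM at W6, and 56.5 and 87.9 TPM at W12, a log2 change of 6.12 against D0 (SE 0.25, limma adjusted *P* = 2.21e-06). Both genes were near 0 at 4 timepoints and among the highest members at the fifth. They passed the filter only through their W12 values, so their rise is part of how they came to be tested.

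*Mmp3*, stromelysin-1, took another course. It was at 8.59 and 7.63 TPM at D0, 0.105 and 0.0198 TPM at W1, 0.291 and 0.167 TPM at W2, 0.296 and 1.76 TPM at W6, and 61.5 and 80.9 TPM at W12. Against D0 the log2 change was −3.10 at W1 (SE 0.33, limma adjusted *P* = 0.00108), −2.89 at W2 (adjusted *P* = 0.00107), −2.27 at W6 (adjusted *P* = 0.00173) and 2.98 at W12 (adjusted *P* = 0.000284). *Mmp3* was the one tested member that fell at W1, W2 and W6 and rose at W12. The 6 libraries from W1 to W6 lay below both D0 libraries, and both W12 libraries above them. *Mmp3* and *Mmp10* transcripts shared 11.4% and 11.9% of their 31-base words with each other, so a part of their reads could have been split between them, although their courses differed at D0.

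The lower members of the cluster moved at the same timepoint. *Mmp1b* and *Mmp1a*, the mouse counterparts of interstitial collagenase, were at 4.21 and 5.24 TPM and at 1.02 and 1.64 TPM at W12, with at most 0.186 and 0.00907 TPM in any earlier library. *Mmp12*, macrophage elastase, was at 1.10 and 2.44 TPM at W12 and at most at 0.359 TPM earlier, and its higher W12 value was in replicate 2, the library with the larger endothelial sum. Of the 7 macrophage and general immune genes, *Cd68* was at 1.49 and 2.60 TPM, *Lyz2* at 0.171 and 0.956 TPM and *Cd74* at 102 and 124 TPM in W12 replicates 1 and 2, and *Adgre1*, *C1qa*, *Csf1r* and *Ptprc* were at most 0.327 TPM there. *Mmp1b*, *Mmp1a* and *Mmp12* did not reach the mean of 1 TPM, and in a fit of all genes with a TPM above 0 each of the 3 was past the threshold at W12 against D0, with log2 changes of 2.46 (adjusted *P* = 0.000709), 1.21 (adjusted *P* = 0.00184) and 1.39 (adjusted *P* = 0.0116) in limma. *Mmp1a* and *Mmp1b* shared 14.5% and 20.7% of their 31-base words, and exons of *Mmp12* and *Mmp1b* overlap by 157 bases on opposite strands. The sources used here do not say whether strand was used, so reads there cannot be assigned to either gene. *Mmp8*, neutrophil collagenase, was at most 0.118 TPM, beside the raised neutrophil sum at W12. The part of the endothelial, neutrophil and macrophage transcripts at W12 in the rise of the cluster was not tested.

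**Figure D3:**
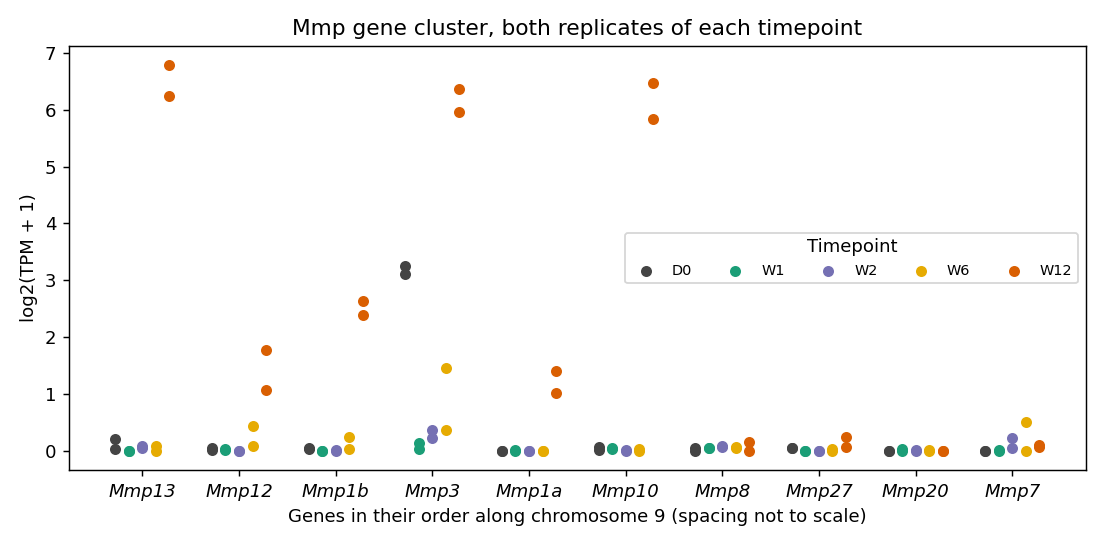
Level of the 10 cluster genes in every library on the log2(TPM + 1) scale, in their order along chromosome 9 with even spacing, and with 1 point per library coloured by timepoint. The W12 points stand above all others for *Mmp13*, *Mmp12*, *Mmp1b*, *Mmp3*, *Mmp1a* and *Mmp10*, and *Mmp3* alone is also raised at D0.

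The 2 gelatinases, which cut denatured collagen and basement membrane collagen IV, started far apart. *Mmp9*, gelatinase B (chr2:164940780-164955850), was at 0.125 and 0.0332 TPM at D0, 0.835 and 0.790 TPM at W1, 1.42 and 0.993 TPM at W2, 3.56 and 2.23 TPM at W6, and 36.5 and 50.8 TPM at W12. The 2 libraries of each timepoint lay above both of the timepoint before. Its log2 change against D0 was 1.83 at W6 (SE 0.25, limma adjusted *P* = 0.00134) and 5.35 at W12 (adjusted *P* = 4.09e-06), and it rose a further 3.52 from W6 to W12 (adjusted *P* = 7.14e-05). The change of 1.03 at W2 (adjusted *P* = 0.0287) lost the threshold without any 1 of the 6 libraries of D0, W1 and W2. *Mmp2*, gelatinase A, was already at 53.3 and 49.4 TPM at D0, followed by 57.9 and 61.0 TPM at W1, 97.6 and 103 TPM at W2, 46.1 and 86.5 TPM at W6, and 46.0 and 43.8 TPM at W12. It was highest at W2, with a log2 change of 0.95 against D0 (SE 0.25, limma adjusted *P* = 0.0335) that lost the threshold without either D0, W1, W2 or W12 library. Its difference from D0 at W12 did not pass (log2 change −0.19, adjusted *P* = 0.565), and at W6 its replicates lay on both sides of the W1 values.

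Membrane-type MMPs are anchored at the cell surface, and *Mmp14* (MT1-MMP), which activates proMMP2 and cuts collagen at the front of invading cells, had the highest mean of all members, 90.7 TPM. It was at 95.8 and 134 TPM at D0, 113 and 106 TPM at W1, 117 and 119 TPM at W2, 66.2 and 61.7 TPM at W6, and 38.4 and 57.1 TPM at W12. All 4 late libraries were below the 6 earlier ones. It fell by 0.81 on the log2 scale at W6 (SE 0.21, limma adjusted *P* = 0.0198) and by 1.25 at W12 (SE 0.21, adjusted *P* = 0.00216). The W6 call was lost without D0 replicate 2 and without W6 replicate 2, and the fall from W2 to W6 (log2 change −0.87, adjusted *P* = 0.0305) without any 1 of the 6 libraries of W1, W2 and W6. *Mmp15* was at 5.47 and 5.88 TPM at D0, 4.79 and 4.99 TPM at W1, 3.57 and 4.30 TPM at W2, 3.84 and 2.04 TPM at W6 and 0.978 and 1.66 TPM at W12, and it fell by 1.54 at W12 against D0 (SE 0.27, limma adjusted *P* = 0.00235). Its W6 call (log2 change −0.80, adjusted *P* = 0.0486) was lost in 16 of 19 alternatives. *Mmp17* ranged from 0.333 to 3.03 TPM and passed in no comparison, and the other 3 membrane-type genes were not detected. *Mmp28*, epilysin, an MMP known from keratinocytes, ranged from 4.02 to 13.6 TPM and passed in none. The 6 membrane-type genes, mostly *Mmp14*, summed to 104 and 141 TPM at D0 and to 40.9 and 59.3 TPM at W12, and the 16 secreted MMPs to 72.7 and 71.3 TPM at D0 and to 288 and 391 TPM at W12, where *Mmp13*, *Mmp10*, *Mmp3*, *Mmp9* and *Mmp2* held most of it. The difference between these sums was not tested.

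The TIMPs did not move as a group. *Timp1* (chrX:20870166-20874735), an inducible inhibitor of most secreted MMPs, was at 0.127 and 0.0286 TPM at D0, 0.114 and 0.239 TPM at W1, 0.472 and 0.597 TPM at W2, 5.21 and 4.74 TPM at W6, and 76.1 and 74.4 TPM at W12. The replicates at W6 and at W12 lay close together and above every earlier library. It rose from W2 to W6 by 1.96 on the log2 scale (SE 0.19, limma adjusted *P* = 0.00154), from W6 to W12 by 3.67 (adjusted *P* = 1.14e-05), and from D0 to W12 by 6.15 (adjusted *P* = 6.64e-07). Unlike *Mmp10* and *Mmp13*, *Timp1* had thus risen in ungrafted skin at W6, by 2.47 against D0 (adjusted *P* = 9.27e-05).

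*Timp2* (chr11:118301069-118355740) was at 8.02 and 8.81 TPM at D0, 43.4 and 35.4 TPM at W1, 69.5 and 61.6 TPM at W2, 38.0 and 24.9 TPM at W6, and 24.4 and 37.9 TPM at W12. It was the one tested member that rose at W1, and it was above both D0 libraries in all 8 later ones. The log2 change against D0 was 2.10 at W1 (SE 0.25, limma adjusted *P* = 0.00175), 2.82 at W2 (adjusted *P* = 0.000363), 1.76 at W6 (adjusted *P* = 0.00157) and 1.74 at W12 (adjusted *P* = 0.00107). Its fall from W2 to W6 (log2 change −1.06, adjusted *P* = 0.0289) was lost without W2 replicate 1, W2 replicate 2 or W6 replicate 2. *Timp2* and *Mmp2* were both highest at W2.

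*Timp3*, which is bound to the matrix and also inhibits ADAM17 and several ADAMTS enzymes, was at 57.3 and 83.2 TPM at D0, 76.6 and 66.7 TPM at W1, 78.6 and 55.8 TPM at W2, 32.8 and 41.9 TPM at W6, and 20.0 and 28.6 TPM at W12. The 4 late libraries lay below the 6 earlier ones. It fell by 0.88 on the log2 scale at W6 (SE 0.26, limma adjusted *P* = 0.0315), a call lost without D0 replicate 2 or W6 replicate 1, and by 1.49 at W12 (adjusted *P* = 0.00242). Exons of *Timp3* overlap those of *Syn3* by 1733 bases on the opposite strand, and *Syn3* was at most 0.379 TPM in any library. *Timp4* was at 0.0354 and 0 TPM at D0, 0 in both W1 libraries, 0.00630 and 0.0306 TPM at W2, 0.266 and 1.05 TPM at W6, and 0.0179 and 0.00888 TPM at W12. Its highest value was in W6 replicate 2, the library with the raised *Dcn*. The make-up of the inhibitors thus turned over: *Timp3* was the highest of the 4 in both D0 libraries and *Timp1* in both W12 libraries. The ratio of summed TIMP to summed secreted MMP transcripts was 0.900 and 1.29 at D0, between 1.06 and 1.80 at W1 and W2, 1.39 and 0.712 at W6, and 0.419 and 0.360 at W12, which were the 2 lowest values.

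**Figure D4:**
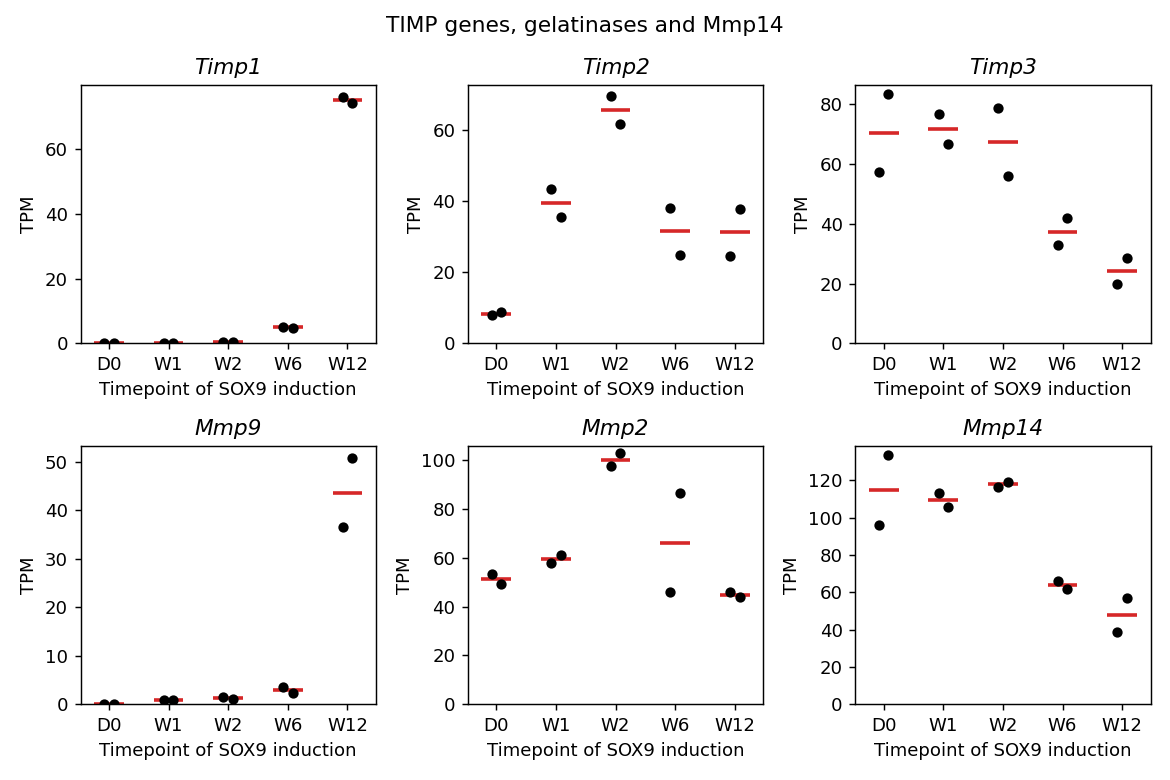
TPM of *Timp1*, *Timp2*, *Timp3*, *Mmp9*, *Mmp2* and *Mmp14* at each timepoint on linear axes from 0, with points for the 2 replicates and red lines for their mean. *Timp1* and *Mmp9* are highest at W12, *Timp2* and *Mmp2* at W2, and *Timp3* and *Mmp14* are lowest at W12.

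Of the 9 somatic sheddases among the ADAMs, 5 were detected, at every timepoint. *Adam10* and *Adam17*, which release NOTCH fragments and ligands of the EGF receptor, moved little. *Adam10* was at 25.6 and 26.3 TPM at D0, 27.4 and 23.8 TPM at W1, 24.9 and 21.2 TPM at W2, 23.9 and 17.9 TPM at W6, and 26.2 and 30.2 TPM at W12. *Adam15* was at 31.5 and 36.8 TPM at D0, 48.4 and 64.3 TPM at W1, 39.8 and 50.4 TPM at W2, 47.9 and 36.8 TPM at W6, and 28.9 and 46.2 TPM at W12. Neither passed the threshold in any comparison. *Adam17* was at 37.0 and 35.7 TPM at D0, 32.8 and 37.6 TPM at W1, 26.3 and 24.6 TPM at W2, 27.7 and 28.2 TPM at W6, and 36.4 and 33.1 TPM at W12. Its fall by 0.50 on the log2 scale at W2 (SE 0.14, limma adjusted *P* = 0.0424) was lost in 13 of 19 alternatives, and its exons overlap *Iah1* on the opposite strand by 311 bases. *Adam9* ranged from 12.5 to 22.1 TPM, and its call at W6 (log2 change −0.53, adjusted *P* = 0.0469) was lost in 15 of 20 alternatives.

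*Adam8* (chr7:139978932-139992562), a sheddase known from leukocytes and from tumour and wound epithelium, was the exception. It was at 41.1 and 30.2 TPM at D0, 9.05 and 5.98 TPM at W1, 1.76 and 2.85 TPM at W2, 2.70 and 2.91 TPM at W6, and 21.8 and 22.1 TPM at W12. The groups from W1 to W6 did not overlap D0, and W12 lay between. The log2 change against D0 was −2.11 at W1 (SE 0.25, limma adjusted *P* = 0.00163), −3.47 at W2 (adjusted *P* = 0.000119) and −3.25 at W6 (adjusted *P* = 9.27e-05). At W12 it had risen by 2.59 against W6 (adjusted *P* = 0.000353), and its difference from D0 did not pass (log2 change −0.66, adjusted *P* = 0.0630). The 3 somatic ADAMs without catalytic activity, *Adam11*, *Adam22* and *Adam23*, stayed under 1 TPM.

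Among the ADAMTS enzymes, *Adamts14* (chr10:61197112-61273438), of the group that trims the N-terminal propeptide of fibrillar procollagens, fell at all 4 later timepoints. It was at 22.6 and 29.6 TPM at D0, 1.56 and 1.22 TPM at W1, 0.748 and 0.714 TPM at W2, 0.395 and 1.00 TPM at W6, and 2.46 and 1.70 TPM at W12. All 8 libraries after doxycycline lay far below both D0 libraries. The log2 change was −3.49 at W1 (SE 0.26, limma adjusted *P* = 0.000196), −3.96 at W2 (adjusted *P* = 8.4e-05), −4.01 at W6 (adjusted *P* = 6.65e-05) and −3.13 at W12 (adjusted *P* = 5.9e-05). Its rise from W6 to W12 (log2 change 0.87, adjusted *P* = 0.0455) was lost in 12 of 19 alternatives. The other 2 genes of the group, *Adamts2* and *Adamts3*, were not detected.

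*Adamts1*, one of the proteoglycan-cleaving ADAMTS enzymes, was at 73.0 and 32.3 TPM at D0, 20.4 and 7.98 TPM at W1, 31.6 and 24.9 TPM at W2, 59.2 and 38.8 TPM at W6, and 64.2 and 85.9 TPM at W12. Its replicates differed widely at D0 and W1, and D0 overlapped W6 and W12. The fall at W1 (log2 change −1.84, SE 0.47, limma adjusted *P* = 0.0416) was lost in 11 of 20 alternatives, and it was −2.47 without W1 replicate 1 and −1.22 without W1 replicate 2. *Adamts4*, aggrecanase-1, was at 0.0767 and 0.0953 TPM at D0, 0.0190 and 0.0641 TPM at W1, 0.130 and 0.111 TPM at W2, 0.172 and 0.650 TPM at W6, and 5.35 and 18.5 TPM at W12, a log2 change of 3.36 against D0 (SE 0.46, limma adjusted *P* = 0.000723) that was 4.17 without W12 replicate 1 and 2.55 without W12 replicate 2. *Adamts9* was at 0.668 and 0.251 TPM at D0, between 0.643 and 1.57 TPM from W1 to W6, and at 2.70 and 6.56 TPM at W12, a log2 change of 1.87 (SE 0.39, adjusted *P* = 0.00552). Both came to be tested only through their W12 values. Both were higher in W12 replicate 2, whose endothelial sum was 93.7 TPM against 42.6 TPM in replicate 1. So were *Mmp1a*, *Mmp1b*, *Mmp3*, *Mmp9*, *Mmp10*, *Mmp12*, *Mmp13* and *Timp2*, and also *Mmp14*, *Mmp15* and *Timp3*, which fell at W12. *Timp1*, which rose, was not higher there, nor were *Adamts14*, *Adamtsl4* and *Adamtsl5*, which fell. The part of the endothelial signal in any of these changes was not tested. The call of *Adamts9* from W6 to W12 (log2 change 1.36, adjusted *P* = 0.0399) was lost in 11 of 18 alternatives.

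*Adamts7*, which cuts the cartilage matrix protein COMP, had a course of its own. It was at 0 and 0.0309 TPM at D0, 1.67 and 4.01 TPM at W1, 2.78 and 3.77 TPM at W2, 13.4 and 3.46 TPM at W6, and 0.499 and 1.11 TPM at W12. It was above both D0 libraries throughout and below all W1 to W6 libraries at W12. The rise passed at W6 (log2 change 2.98, SE 0.52, limma adjusted *P* = 0.00368) and at W2 (log2 change 2.07, adjusted *P* = 0.0296), where it was lost without either D0, W2 or W12 library. The log2 change at W6 was 2.13 without W6 replicate 1 and 3.82 without W6 replicate 2, past the threshold both times. At W1 it did not pass (log2 change 1.85, adjusted *P* = 0.0586). The fall from W6 to W12 (log2 change −2.17, adjusted *P* = 0.0215) was lost without W6 replicate 1, where it was −1.33, or either W12 library, and it was −3.01 without W6 replicate 2. Of the remaining ADAMTS genes, *Adamts10* reached 1.87 and 2.69 TPM at W12, and *Adamts17*, *Adamts18* and *Adamts20* peaked at 1.30, 1.97 and 1.04 TPM without reaching 1 TPM in both replicates of a timepoint.

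**Figure D5:**
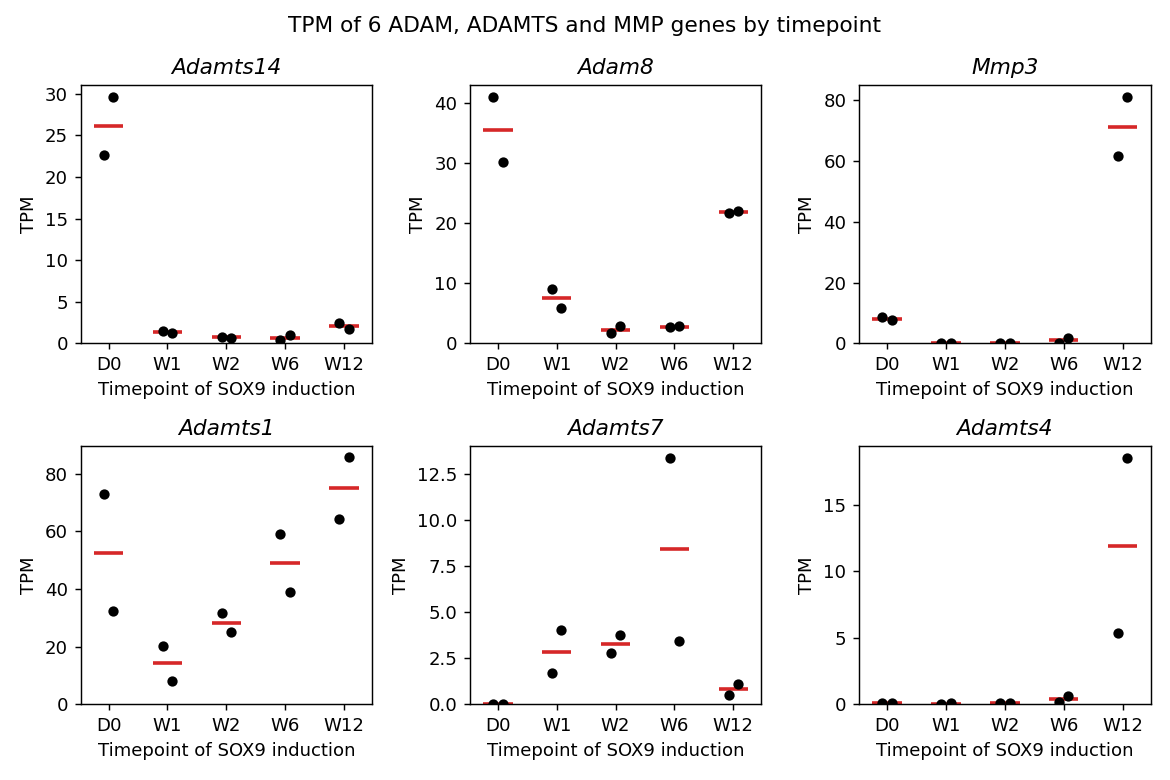
TPM of *Adamts14*, *Adam8*, *Mmp3*, *Adamts1*, *Adamts7* and *Adamts4* at each timepoint on linear axes from 0, with points for the 2 replicates and red lines for their mean. *Adamts14* and *Adam8* drop after D0, *Adam8* and *Mmp3* are high again at W12, *Adamts7* is highest at W6 in a single replicate, and *Adamts4* appears at W12.

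Of the ADAMTS-like proteins, *Adamtsl4* and *Adamtsl5*, which bind fibrillin microfibrils, were lower in the late samples. *Adamtsl5* was at 51.7 and 43.6 TPM at D0, 45.0 and 56.1 TPM at W1, 33.8 and 28.5 TPM at W2, 14.9 and 23.4 TPM at W6, and 22.6 and 21.7 TPM at W12. The libraries from W2 on did not overlap those of D0 and W1, and the log2 change against D0 was −1.30 at W6 (SE 0.22, limma adjusted *P* = 0.00356) and −1.07 at W12 (adjusted *P* = 0.00566). *Adamtsl4* was at 2.33 and 8.37 TPM at D0, 9.19 and 8.91 TPM at W1, 5.42 and 5.51 TPM at W2, 0.618 and 0.640 TPM at W6, and 0.811 and 0.731 TPM at W12. All late libraries were below 1 TPM and all earlier ones above 2 TPM. It fell by 1.78 on the log2 scale at W6 (SE 0.40, limma adjusted *P* = 0.0113) and by 1.66 at W12 (adjusted *P* = 0.0108), the latter lost without either W12 library, and from W2 to W6 its log2 change was −1.99 (adjusted *P* = 0.0164), lost without either W2 library or W6 replicate 2. Without D0 replicate 2, where it was at 8.37 TPM, the log2 change was −1.03 at W6 and −0.91 at W12, and without D0 replicate 1 it was −2.52 and −2.40, all still past the threshold. *Adamtsl1* ranged from 0.923 to 4.07 TPM and passed in no comparison. *Thsd4*, the sixth ADAMTS-like gene under another name and no member of the set, was at 6.01 and 5.69 TPM at D0 and at most 0.735 TPM later, with a log2 change of −2.29 at W1 (limma adjusted *P* = 0.00278) and −2.25 at W12 (adjusted *P* = 0.000803). It reached a mean of 1 TPM only through D0, so its fall is part of how it came to be tested.

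Partner genes of these families were taken from 4 lists. Of 7 activators of metalloproteinases, 6 were tested, and 2 rose and 1 fell at W12 against D0, where 17.9% of all genes rose and 25.1% fell, so counts this small are not read as a result about the list. Those that rose were *Plau*, urokinase, and *Plaur*, its receptor, which concentrate plasmin activity at the cell surface. *Plau* was between 0.374 and 1.90 TPM from D0 to W6 and at 25.9 and 28.1 TPM at W12 (log2 change 3.55, SE 0.28, limma adjusted *P* = 5e-05). *Plaur* was between 0.0990 and 1.67 TPM from D0 to W6 and at 23.1 and 36.8 TPM at W12 (log2 change 4.17, SE 0.28, limma adjusted *P* = 2.2e-05). *Plaur* reached a mean of 1 TPM only through W12, so its rise is part of how it came to be tested. *Plat*, the tissue-type activator, fell by 1.17 at W12 (limma adjusted *P* = 0.0159). *Furin*, the proprotein convertase that activates MMP14 and many ADAMs, passed at no timepoint against D0. *Pcsk6*, another convertase, was the one activator that rose at W1 and W2, from 6.50 and 6.09 TPM at D0 to 27.4 and 31.7 TPM at W2 (log2 change 2.06, limma adjusted *P* = 0.00842), and it was at 3.99 and 4.11 TPM at W12.

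Of 7 inhibitors outside the TIMPs, 3 were tested. *Spock2*, a testican, rose from 0.158 and 0.125 TPM at D0 to 3.10 and 7.46 TPM at W2 (log2 change 2.37, limma adjusted *P* = 0.00279) and was at 0.133 and 0.135 TPM at W12. At W12 none of the tested inhibitors passed against D0 in limma. *Reck*, a membrane-anchored MMP inhibitor, was at most 0.281 TPM. Of 9 partners of ADAM10 and ADAM17, 8 were tested, and 1 rose and 4 fell at W12 against D0, beside the same 17.9% and 25.1% of all genes. The 3 iRhom complex genes that carry ADAM17 to the surface, *Rhbdf1*, *Rhbdf2* and *Frmd8*, fell by 1.05 (limma adjusted *P* = 0.00318), 1.20 (adjusted *P* = 0.0142) and 0.69 (adjusted *P* = 0.0182). Of the tetraspanins that direct ADAM10, *Tspan5* fell by 1.70 (adjusted *P* = 0.00125) and *Tspan15* rose by 2.00 (adjusted *P* = 0.00638) at W12. *Tspan17* had risen against D0 at W1 and W2 (log2 changes 1.21 and 1.11) and *Tspan33* at W2 and W6 (log2 changes 1.33 and 2.29). Neither *Tspan17* nor *Tspan33* passed at W12. *Adam17* itself did not pass at W12 (log2 change −0.06, adjusted *P* = 0.735). Of the 4 matrix partners, *Cd44*, a docking receptor for MMP9 and MMP14, rose at each timepoint against D0, by 0.57 to 0.79 on the log2 scale, *Thsd4* and *Papln* fell at W12, and *Bsg*, an MMP inducer also called EMMPRIN, stayed between 479 and 625 TPM.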

How the data were processed

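RNA-seq was analysed in 10 libraries, 2 at each of D0, W1, W2, W6 and W12. For these, the authors deposited gene-level TPM. They had trimmed reads with Skewer, run Salmon 1.4.0 on a GENCODE index (GRCm38) to which the transgene was added, and summarised transcripts with Tximport 1.12.3. TPM keep no depth, so the precision set by depth is unknown. The 4 hair placode libraries were not used, as the table used for them holds only log2 fold changes, p-values and means of the authors' own comparison.

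The paper tested counts with DESeq2, which TPM do not permit. Here limma 3.58.1 (R 4.3.3; lmFit, contrasts.fit, eBayes with trend) was fitted to log2(TPM + 1) of the 13110 genes whose mean over the 10 libraries reached 1 TPM, and was tested on simulated data. Groups came from the sample labels. Members were matched by symbol, and gene positions are those of GENCODE M21. The members, role groups and partner lists were chosen with earlier results of these data known. Values in every library are given for the 4 *Timp* genes, the 6 largest and 6 smallest called changes at W12, every call at W1 or W2, and the 10 highest means. Other genes with such values were added for their place in a group. Alternatives were a pseudocount of 0.1, other filters and scalings, fewer libraries, a replicate block and each replicate left out. The fits without W12 and with crossed replicate numbers were chosen after seeing the data. Python 3.11.15 was used elsewhere. Some items are not reported here.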

Additional observations from a re-analysis of the deposited data

How the results depend on the processing

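The alternatives were run on the 54 changes of set members past the threshold, over 21 settings, and not on partner genes or on changes that did not pass. Altering the filter, the trend, the replicate block or a library of another timepoint leaves a log2 change as it is. Its direction could not reverse in those settings, only its adjusted *P* could move. Of 1018 recomputed values, 878 stayed on their side of the threshold, 140 lost it and none reversed direction. The count of members past the threshold at W2 against D0, 8, became 4 with all genes above 0 TPM in the fit and 5 without the W12 libraries, a setting chosen after seeing the data. At W6 against D0, 13 became 8 with all genes above 0 TPM and 7 with only the 4 libraries compared. The 4 that rose at W6 stayed at 4 in these 2 settings, and the 9 that fell became 4 and 3. At W12 against D0, 14 became 20 with all genes above 0 TPM, where members below the filter on mean level enter the fit. From W2 to W6, 4 became 1 with all genes above 0 TPM, and from W6 to W12, 10 became 6 with a mean of at least 5 TPM, where fewer genes are tested. The other causes were not tested. With each replicate left out in turn, the counts ranged from 4 to 6 at W1, 4 to 10 at W2, 9 to 12 at W6 and 13 to 15 at W12 against D0, and from 0 to 1 from W1 to W2, 1 to 5 from W2 to W6 and 7 to 11 from W6 to W12. The replicate numbers of the labels do not pair these mice, as the correlations of same-numbered deviations ran from −0.13 to 0.18. With a replicate block the counts were 5, 8, 12 and 14 against D0, then 0, 4 and 8. With crossed numbers, added after seeing the data, the block gave 4 at W1, 11 at W6 and 8 from W6 to W12. The number of detected genes was 33 at a limit of 0.5 TPM, 21 at 5 TPM and 29 after median-ratio scaling. Calls stated above as lost under alternatives rest on 2 replicates a timepoint.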

Other observations

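Some members below the filter on mean level were also past the threshold when all genes above 0 TPM entered the limma fit. *Adam12*, a sheddase known from stroma and tumours, peaked at 0.775 TPM and had a log2 change of 0.73 at W12 against D0 (adjusted *P* = 0.00536) and of 0.65 against W6 (adjusted *P* = 0.0153). *Adamts10*, which binds fibrillin, had a log2 change of 1.15 at W12 against D0 (adjusted *P* = 0.0438). *Adamts12* had one of 0.06 (adjusted *P* = 0.0353), at a level too low to read on this scale. Other undetected genes included *Mmp11*, with a highest value of 0.795 TPM, *Adam11*, with 0.863 TPM, and *Adamts5*, with 0.647 TPM.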
